A study of Rattus norvegicus with 15 samples.

Results

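Bmal1, Clock and Npas2 encode the transcriptional activators at the centre of the circadian clock, and their transcript levels were followed in the liver of 15 male rats whose mothers had been fed freely or calorie restricted. The members were the 3 genes of these names among 14506 named genes, and each was read by 1 probe set, so no choice between probe sets was needed. Probe set 10710028 reads Bmal1 (Entrez gene 29657), 10772249 reads Clock (60447) and 10922745 reads Npas2 (316351).

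All rats were offspring of Sprague-Dawley dams, and RNA from whole liver was hybridised to an Affymetrix Rat Gene array, 1 array per sample and 3 arrays per group. Control offspring came from mothers fed normally through pregnancy and lactation. Offspring with intrauterine calorie restriction (IUCR) came from mothers restricted by 50% from embryonic day 11 to 21 and fed normally afterwards. Offspring with intrauterine and postnatal calorie restriction (IPCR) came from mothers restricted over the same days of pregnancy and again from postnatal day 1 to 21. Livers were taken at day 21, the last day of restriction, from control and IPCR rats, and at day 450 from control, IUCR and IPCR rats. IUCR livers of day 21 are not analysed here. The labels call the samples of a group separate littermates without giving the number of litters, so the p-values speak for the spread among these rats only. The hour at which livers were taken is not in the labels. This bears on every level below, since clock transcripts change through the day, and a difference in hour and a difference in level cannot be told apart.

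Values are log2 intensities, so a difference of 1 is a doubling of signal. Across genes, the 15 pairs of arrays within a group had correlations of 0.99 to 0.995. The 10 hepatocyte markers, all measured, averaged between 13.31 and 13.80 on every array, far above the array medians of 7.11 to 7.24, so hepatocyte transcripts dominated as labelled. One library stood apart: on day 450 IPCR array C the 5 pancreatic acinar markers averaged 8.75, against 6.52 to 6.84 on the other 14 arrays, and the amylase gene Amy2a3 read 10.06 there against 6.44 and 6.59 on day 450 IPCR arrays A and B. Changes and correlations of the members that use this array are also given without it, and the part of pancreatic RNA in them was not tested. Group means and the order of the groups are given with it only. In whole tissue, fewer cells of a type and less RNA per cell cannot be told apart. No call of signal over background was used, and the lower quartile of the arrays lay at 6.0 to 6.16, close to the lowest Bmal1 values given below.

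BMAL1 is a bHLH-PAS protein that pairs with CLOCK or with its paralogue NPAS2, and either pair binds E-box elements and switches on the Period and Cryptochrome genes, the REV-ERB receptors (Nr1d1, Nr1d2) and outputs such as Dbp. PER and CRY proteins then inhibit the pair, and REV-ERB proteins repress Bmal1, Clock and Npas2 at ROR response elements, which the ROR receptors use to activate them. In liver this loop gives daily rhythms to genes of glucose, lipid and heme metabolism, with Bmal1 and Dbp peaking in opposite parts of the day.

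The promoters of the 3 members are shown because the receptors that control Bmal1 act close to its start site. Each line gives the 250 bases before the RefSeq start on assembly GRCr8, 5′ to 3′ on the plus strand. Capitals mark AAAGTAGGTCA, which matches the ROR response element, and AAAGTAGGTTA, which differs from it at 1 letter. Bmal1 lies at chr1:176766078-176766327, Clock at chr14:32262500-32262749 and Npas2 at chr9:48959315-48959564.
Bmal1: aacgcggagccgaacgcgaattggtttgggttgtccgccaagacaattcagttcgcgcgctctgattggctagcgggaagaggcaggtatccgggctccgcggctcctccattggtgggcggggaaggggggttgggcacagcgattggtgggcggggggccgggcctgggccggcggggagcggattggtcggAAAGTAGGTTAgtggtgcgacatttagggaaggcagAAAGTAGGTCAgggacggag
Clock: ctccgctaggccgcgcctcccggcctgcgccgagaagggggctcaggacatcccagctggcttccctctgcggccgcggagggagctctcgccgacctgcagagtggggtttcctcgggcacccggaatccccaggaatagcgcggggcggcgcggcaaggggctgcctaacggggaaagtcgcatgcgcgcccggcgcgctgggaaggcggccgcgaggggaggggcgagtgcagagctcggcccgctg
Npas2: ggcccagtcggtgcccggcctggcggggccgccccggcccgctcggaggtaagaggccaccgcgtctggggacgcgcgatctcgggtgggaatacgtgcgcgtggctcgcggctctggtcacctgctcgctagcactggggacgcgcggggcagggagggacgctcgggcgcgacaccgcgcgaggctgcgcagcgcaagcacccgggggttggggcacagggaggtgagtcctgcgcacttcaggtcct

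The Bmal1 window held AAAGTAGGTTA at -56 to -46 and AAAGTAGGTCA at -20 to -10, counted in bases from the start site. A pattern that takes any base at the letter where these differ was written after the Bmal1 sequence had been seen. Of 33469 promoter windows of the same length, 12 (0.0359%) held it on either strand, and 1 window, that of Bmal1, held it more than once. The copy nearer the start site was also the only match to the ROR response element in the member windows, and 106 windows (0.317%) held such an element. It includes the receptor core AGGTCA, which 14.1% of windows held. No match to these patterns, to the E-box CACGTG (5.59% of windows) or to the D-box TTATGTAA (0.828%) was found in the Clock and Npas2 windows shown, nor in the window of another Clock start at chr14:32300295-32300544. The windows shown were 64.0% G and C for Bmal1, 74.4% for Clock and 74.8% for Npas2, against a median of 51.2% over all windows.

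For genes downstream and upstream of the members, 2 sites of 30 bases are given to show the elements themselves, with the element in capitals. The first is an E-box, the element bound by BMAL1 with CLOCK or NPAS2, at an internal start of Nr1d1 (chr10:84229628-84229657, minus strand, -191 to -186). The second is a D-box, the element bound by DBP and TEF, before Per2 (chr9:99497167-99497196, minus strand, -192 to -185).
Nr1d1: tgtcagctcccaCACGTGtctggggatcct
Per2: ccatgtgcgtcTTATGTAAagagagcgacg
Most windows scanned held no match. The E-box was found neither in the other Nr1d1 window nor in the windows of Nr1d2, Dbp, Per1, Per2, Per3 and Cry2, and the D-box in no scanned gene other than Per2. These are letter matches in short windows, and binding was not measured.

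At day 21 all 3 activators were lower in IPCR than in control liver, with Bmal1 down most and Clock least. Bmal1 read 9.01, 8.96 and 8.92 in control arrays A, B and C and 6.77, 7.35 and 6.57 in IPCR arrays. The control arrays lay within a narrow band, and the highest IPCR array stood far below it. The change was -2.07 (SE 0.23, 95% interval -2.57 to -1.58), a 4.21-fold drop, with a limma adjusted p of 5.13e-05, and it was the 25th largest of 14506 in size.

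Npas2, the partner that can stand in for CLOCK, read 8.91, 8.58 and 8.65 in control and 7.46, 7.56 and 7.27 in IPCR liver. The groups did not overlap, and the change was -1.28 (SE 0.22, interval -1.75 to -0.82), 2.43-fold, with a limma adjusted p of 0.00163. Clock read 9.06, 9.12 and 9.0 in control and 8.59, 8.63 and 8.69 in IPCR liver. These groups did not overlap either. The change of Clock was -0.42 (SE 0.10, interval -0.63 to -0.21), 1.34-fold, with a limma adjusted p of 0.015. The call of Clock rests on single arrays: its limma adjusted p was 0.0635 without control array B, 0.0642 without IPCR array A and 0.0521 without IPCR array B. It was also lost (-0.37, limma adjusted p = 0.0521) when each array's interquartile range was a covariate.

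A gene was counted as changed where limma's p, adjusted by Benjamini and Hochberg over all 14506 genes, was below 0.05. By this rule 9.62% of all genes changed at day 21 and 6.99% fell, and 15.3% lay lower without overlap between the groups. Of the members, 3 of 3 fell. The split of calls by direction depends on scaling: 27.4% of the changed genes were higher as deposited, 17.3% after each array was centred on its median and 48.2% after quantile normalization. The members fell under each of these. Of the endothelial markers, 4 of the 6 measured (of 7 listed) also fell, and their array means ran from 8.75 to 9.30 in IPCR and from 9.31 to 9.70 in control arrays. Whether this has a part in the lower activators was not tested.

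Members fell by unequal amounts. Within arrays, the log2 difference of Bmal1 to Clock changed by -1.65 with restriction (SE 0.25, -1.88 to -1.46 with each array left out in turn). The difference of Bmal1 to Npas2 changed by -0.79 (SE 0.18, -0.95 to -0.71), and that of Npas2 to Clock by -0.86 (SE 0.16, -0.96 to -0.75). In each of the 3 pairs the 3 IPCR arrays lay below the 3 controls, and the exact two-sided permutation p was 0.10, the smallest that 3 against 3 arrays allow. Such a design cannot pass 0.05, so the sizes and errors are the result.

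**Figure D1:**
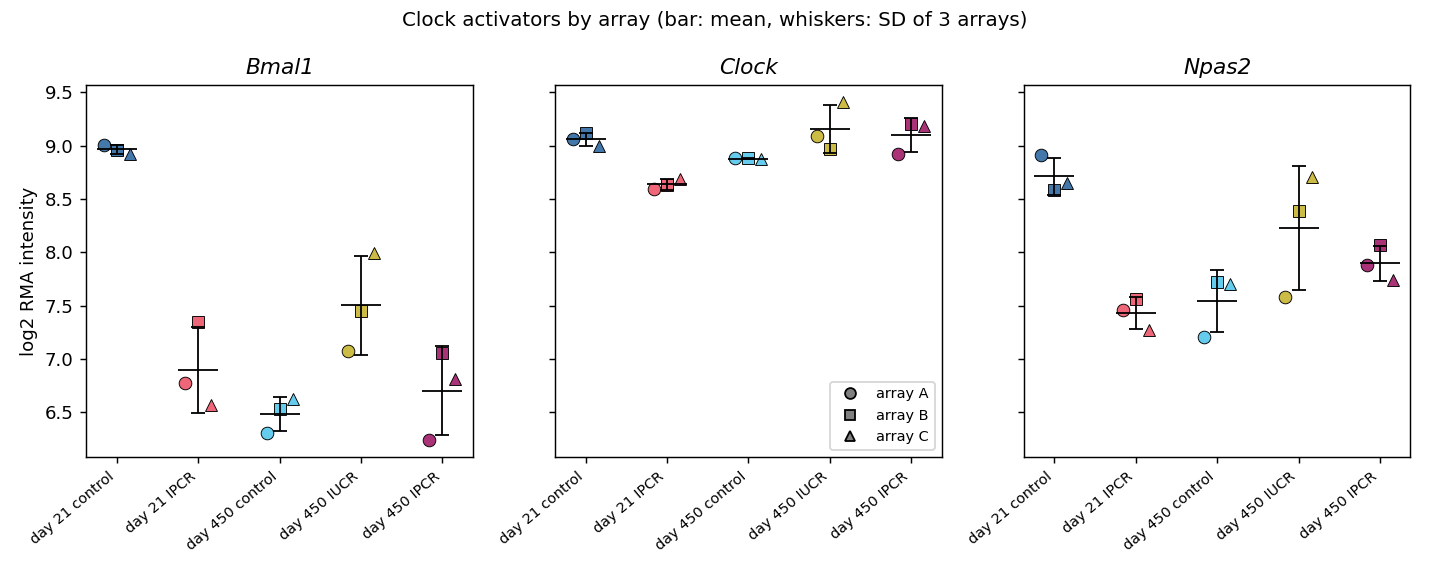
Log2 RMA intensity (y axis) of Bmal1, Clock and Npas2 on each of the 15 arrays, by group (x axis), with the horizontal bar at the group mean and whiskers of 1 SD over 3 arrays. Bmal1 stands near 9 in the 3 day 21 controls and between 6.24 and 7.99 on the other 12 arrays, while Clock stays between 8.59 and 9.41 throughout.

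The REV-ERB genes, whose products repress Bmal1 and Clock transcription, stood higher in the same livers. Nr1d1, which encodes REV-ERB alpha, read 8.88, 9.54 and 9.53 in control and 9.89, 10.12 and 9.87 in IPCR arrays at day 21. Every IPCR array was above every control, and the rise was 0.64 (SE 0.15, limma adjusted p = 0.0146). Without IPCR array B the adjusted p of Nr1d1 was 0.0735. Nr1d2, which encodes REV-ERB beta, read 8.81, 8.85 and 8.94 in control and 9.44, 9.50 and 9.64 in IPCR liver, a rise of 0.66 (SE 0.09, limma adjusted p = 0.000464) that held without any 1 array.

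Of the 11 listed receptors and cofactors that act on Bmal1 and Clock transcription 7 were measured, and 4 rose and none fell, with a median change of 0.37 against 0.02 for all genes. The share called was 57.1%, against 9.62% of all genes. Without IPCR array B the count of rises was 1. Ncor1 (mean 9.56 in control, 9.38 in IPCR liver) and Hdac3 (9.71, 9.57) lay lower without overlap, as did 15.3% of all genes. Neither passed the test. The other genes that rose encode coactivators that work with ROR receptors: Ppargc1a rose by 0.95 (SE 0.23, limma adjusted p = 0.0162) and Ppargc1b by 0.37 (SE 0.11, limma adjusted p = 0.0414). The call of Ppargc1a was lost without control array B or C or IPCR array B, and that of Ppargc1b without any 1 array other than IPCR array C. Nfil3, a repressor that competes with DBP at D-boxes and is itself under ROR and REV-ERB control, went the way of the activators and fell by 0.55 (SE 0.13, limma adjusted p = 0.0178). Its call was lost without control array A or C or IPCR array A.

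Genes that the activators switch on were higher, not lower, in IPCR liver at day 21. Of 18 listed E-box output genes 15 were measured, 11 rose and none fell, with a median change of 0.70. Nr1d1 and Nr1d2 are on this list and on that of receptors and cofactors, so their rises are counted in both. The background of rises was 2.63% of all genes. Leaving out any 1 of the 6 arrays gave a count of 9. Dbp, a D-box activator, read 8.41, 8.6 and 8.89 in control and 10.87, 10.47 and 11.12 in IPCR liver, a rise of 2.19 (SE 0.21, limma adjusted p = 1.62e-05). Per3, a Period gene, read 7.17, 7.82 and 7.72 against 9.87, 9.47 and 10.12, a rise of 2.24 (SE 0.23, limma adjusted p = 2.51e-05). In both genes the groups stood apart by more than the whole width of either.

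The other Period genes rose as well, Per1 by 1.35 (SE 0.14, limma adjusted p = 2.51e-05) and Per2 by 1.09 (SE 0.21, limma adjusted p = 0.00354). Noct, which encodes a rhythmic phosphatase of the nicotinamide cofactors, rose by 3.14 (SE 0.34, limma adjusted p = 4.52e-05), and its lowest IPCR array at 8.96 stood far above the highest control at 6.85. Tef, a relative of Dbp, rose by 0.83, Usp2, a deubiquitinase, by 1.04 and Wee1, a cell cycle kinase, by 0.70. Cry2 rose by 0.41 (limma adjusted p = 0.0345), but this call was lost on leaving out any 1 array, and that of Wee1 without any 1 array other than IPCR array B. The 4 measured output genes that did not pass were Cry1 (0.22, limma adjusted p = 0.239), Bhlhe40 (0.12), Bhlhe41 and Nampt (-0.07). Among the 8 measured repressors of the activator complex, which overlap this list, 4 rose (Per1, Per2, Per3 and Cry2) and none fell.

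**Figure D2:**
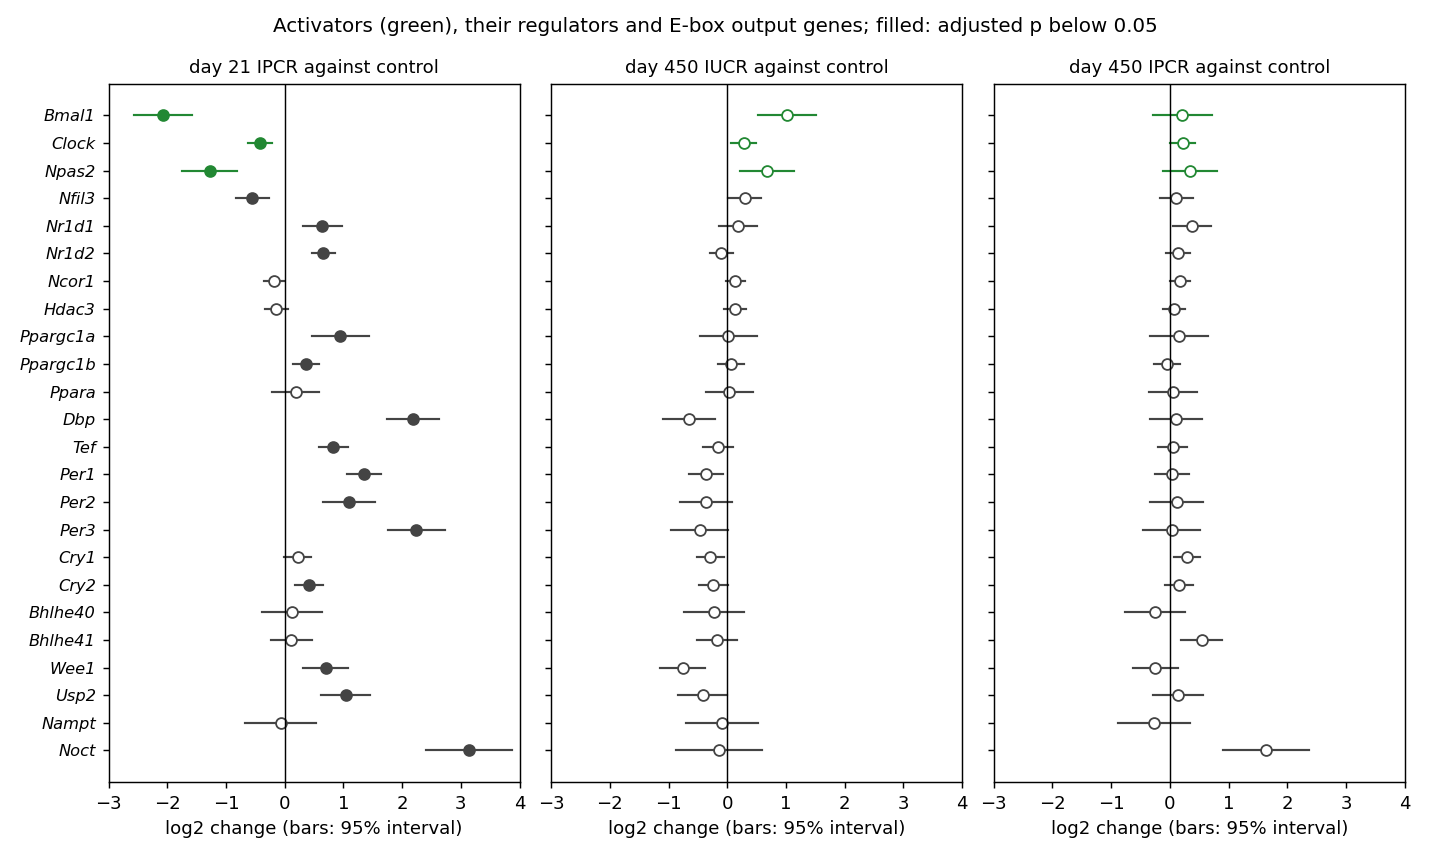
Log2 change with its 95% interval (x axis) for the 3 activators in green and for Nfil3, receptors and cofactors and E-box output genes in grey, in IPCR against control at day 21 and in IUCR and IPCR against control at day 450. Filled circles have a limma adjusted p below 0.05. At day 21 the activators and Nfil3 are filled to the left and 11 of 15 output genes are filled to the right, and at day 450 no circle is filled. Nr1d1 and Nr1d2, which are on both lists, are drawn once, among the receptors.

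Of 16 listed bHLH-PAS relatives and coactivators 15 were measured, and at day 21 1 fell and none rose, with a median change of 0.07. The share called, 6.67%, was near the 9.62% of all genes. Bmal2, the paralogue of Bmal1, read 6.86, 6.78 and 6.69 in control and 6.73, 6.77 and 6.81 in IPCR liver, so the groups overlapped (-0.01, SE 0.16, limma adjusted p = 0.986). Ahr, the dioxin receptor of the same domain family, was the gene that fell (-0.77, SE 0.12, limma adjusted p = 0.00112), from a mean of 10.03 to 9.26.

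Heme is a ligand of NPAS2 and of the REV-ERBs, and Alas1, the rate-limiting enzyme of its synthesis in liver, is a target of NPAS2 with BMAL1. Alas1 read 10.95, 11.05 and 10.79 in control and 12.06, 11.88 and 12.36 in IPCR liver at day 21, a rise of 1.17 (SE 0.15, limma adjusted p = 0.000206). It thus rose while Npas2 and Bmal1 transcripts fell. Of the 9 measured heme genes (10 listed) 1 rose and 2 fell, a share of 33.3% against 9.62% of all genes. Those that fell were the later enzymes Cpox (-0.41, limma adjusted p = 0.0226) and Ppox (-0.36, limma adjusted p = 0.0227). Neither fall held in every run with 1 array left out: Cpox was lost without any 1 array other than IPCR array C, and Ppox without control array B or IPCR array A or B.

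Among 19 measured enzymes that modify the activator proteins (25 listed) 2 fell and none rose, Csnk2b, a casein kinase 2 subunit, by 0.33 (limma adjusted p = 0.00885) and Oga, which removes O-GlcNAc, by 0.47 (limma adjusted p = 0.00879). Both calls were lost without IPCR array A. The share called, 10.5%, was close to the 9.62% of all genes. Of 8 measured metabolic targets (9 listed) 3 rose (37.5%) and none fell, where 2.63% of all genes rose. Among those that rose were Gys2, liver glycogen synthase (0.80, limma adjusted p = 0.000134), and Pck1, which commits carbon to glucose production (0.66, limma adjusted p = 0.00633). The remaining gene that rose was already counted in another list above.

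In control liver Bmal1 and Npas2 were also lower at day 450 than at day 21. Bmal1 read 6.31, 6.53 and 6.62 in the old controls, a change of -2.48 (SE 0.23, interval -2.97 to -1.98) or 5.57-fold, with a limma adjusted p of 4.46e-06. Npas2 read 7.21, 7.72 and 7.70, a change of -1.17 (SE 0.22, interval -1.63 to -0.70) with a limma adjusted p of 0.0025. Clock read 8.88, 8.88 and 8.87, and its change of -0.18 (SE 0.10, interval -0.40 to 0.03) did not pass (limma adjusted p = 0.318), although old and young arrays did not overlap. Over all genes 9.89% changed with age, 5.22% fell and 13.8% lay lower without overlap; 2 of the 3 members fell.

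This comparison uses the same day 21 control arrays as the comparison with IPCR, so the values of both are set side by side without being read as separate support. Control liver at day 450 had 9 of 15 E-box output genes higher than at day 21 and none lower, with a median of 0.82, where 4.67% of all genes rose. Dbp read 11.60, 11.49 and 11.32, higher by 2.84 (SE 0.21, limma adjusted p = 3.44e-07), and Nr1d1 read 10.62, 10.82 and 10.41, higher by 1.30 (SE 0.15, limma adjusted p = 4.39e-05). Nr1d2 rose by 0.95, Per3 by 1.47, Per2 by 1.22, Tef by 0.82 and Cry2 by 0.54. Of the repressors 5 of 8 rose and none fell.

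Several genes were called in only 1 of the age and restriction comparisons, or in opposite directions. Per1 stood at 7.82 in old against 7.79 in young controls (0.03, limma adjusted p = 0.924), Noct at 6.47 against 6.31 (0.16, limma adjusted p = 0.846) and Alas1 at 11.12 against 10.93 (0.19, limma adjusted p = 0.54). None of these 3 passed with age, and all 3 had risen in IPCR liver at day 21; the difference between these comparisons was not tested. Ppargc1a fell by 1.64 with age (SE 0.23, limma adjusted p = 0.000245), and of the 7 receptors and cofactors 2 rose and 1 fell. That share was 42.9%, against 9.89% of all genes. Bhlhe40 rose by 0.96 (limma adjusted p = 0.018, lost without day 21 control array B or day 450 control array B) and Bhlhe41 by 0.86 (limma adjusted p = 0.00271).

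Among the relatives Hif1a, the oxygen-regulated bHLH-PAS factor, rose with age by 0.33 (limma adjusted p = 0.0214, lost without day 21 control array A or B or day 450 control array C) and Ahr fell by 1.90 (limma adjusted p = 1.05e-07). Bmal2 did not pass (0.38, limma adjusted p = 0.165). Of the modifiers 2 of 19 fell, Csnk1e by 0.40 (limma adjusted p = 0.00766) and Csnk2b by 0.27 (limma adjusted p = 0.0258, lost without any 1 array other than day 450 control A). Ppox was the 1 heme gene that fell (-0.33, limma adjusted p = 0.0313, lost without any 1 array other than day 21 control A). The shares called were 13.3% of relatives, 10.5% of modifiers and 11.1% of heme genes, near the 9.89% of all genes. Nfil3 fell by 0.44 (limma adjusted p = 0.0481), and this call was lost without day 21 control array A or C or day 450 control array A or B.

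Of the 8 metabolic targets 2 rose with age and 1 fell, a share of 37.5% against 9.89% of all genes. Gys2 rose by 0.79 (limma adjusted p = 9.59e-05) and Slc2a2, the liver glucose transporter, by 0.46 (limma adjusted p = 0.016, lost without day 21 control array C or day 450 control array C). Lpin1, a phosphatidate phosphatase, fell by 1.27 (limma adjusted p = 0.00937). Cell type markers moved with age too: 6 of the 8 stellate cell and fibroblast markers fell, their array means running from 9.21 to 9.49 in young and from 8.49 to 8.62 in old controls. Of the 5 measured red cell precursor markers (of 7) 2 fell, with array means of 8.31 to 8.75 and of 7.61 to 8.19. Over all genes 5.22% fell. The part of these cells in the age changes was not tested.

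At day 450 the activators stood higher in IUCR than in control liver, but none passed the test. Bmal1 read 7.07, 7.45 and 7.99 in IUCR arrays A, B and C against 6.31, 6.53 and 6.62 in controls. All IUCR arrays lay above all controls, and array C stood highest. The difference was 1.02 (SE 0.23, interval 0.52 to 1.51), 2.02-fold, with an unadjusted p of 0.000523 and a limma adjusted p of 0.458. By size it ranked 8th of 14506 genes and by p 16th. In this comparison limma called 0 genes after adjustment (0.0%), and 1052 genes had an unadjusted p below 0.05.

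Clock read 9.09, 8.97 and 9.41 in IUCR liver, also without overlap (0.28, SE 0.10, interval 0.07 to 0.49, limma adjusted p = 0.605). Npas2 read 7.58, 8.39 and 8.71, and array A fell among the controls (0.68, SE 0.22, interval 0.22 to 1.14, limma adjusted p = 0.595). IUCR values of 2 of the 3 members thus lay above control without overlap, where 5.68% of all genes did. The E-box output genes were not called either. Dbp read 11.21, 10.90 and 10.36, below all controls as were 5.49% of genes (-0.65, SE 0.21, limma adjusted p = 0.595), and Per3 read 8.95, 8.72 and 8.04 (-0.47, SE 0.23, limma adjusted p = 0.69). Across these 3 arrays Bmal1 and Npas2 were lowest on array A and highest on array C, and Dbp and Per3 were highest on array A and lowest on array C. These genes were picked after their values were seen. Per2, Nr1d2 and Wee1 ran as Dbp did, but not every gene followed. Clock was lowest on array B, as was Tef (9.29, 8.99 and 9.07). Nr1d1 (10.82, 10.66 and 10.93) and Per1 (7.33, 7.37 and 7.67) were highest on array C. Wee1 stood at -0.76 (limma adjusted p = 0.458) and Nr1d1 at 0.18 (limma adjusted p = 0.813).

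**Figure D3:**
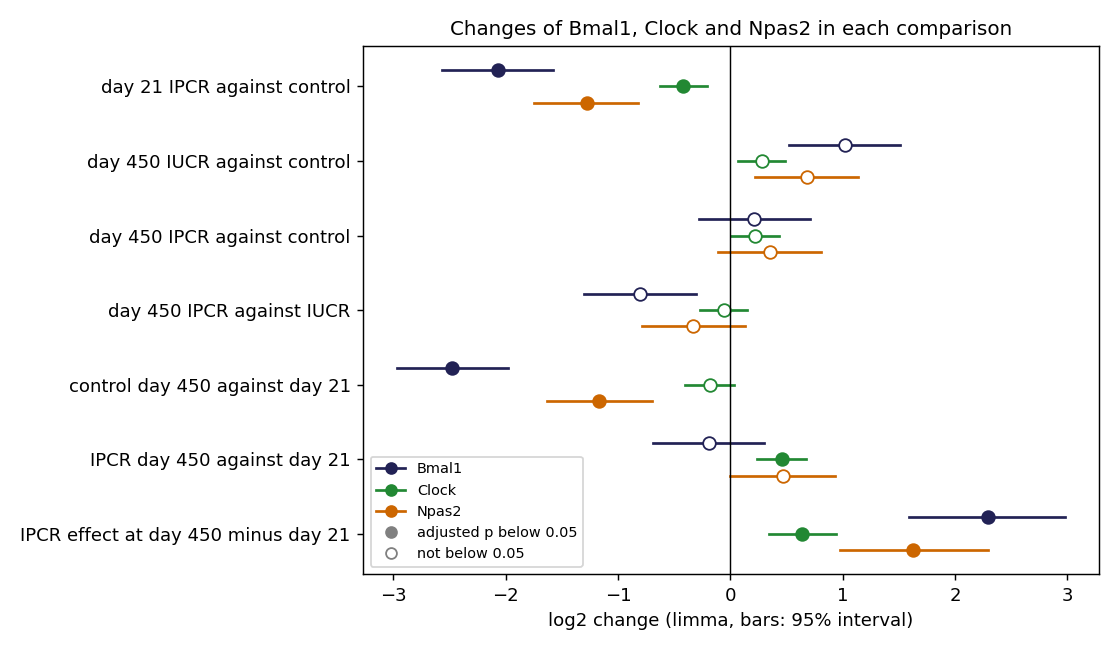
Log2 change of Bmal1, Clock and Npas2 (x axis) with its 95% interval in each comparison (y axis), filled where the limma adjusted p was below 0.05. All 3 are filled to the left for IPCR at day 21 and to the right for the difference of the IPCR effects, and all are open in the 3 comparisons within day 450.

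IPCR livers at day 450 resembled their controls in Bmal1 more than they had at day 21. Bmal1 read 6.24, 7.06 and 6.81 in IPCR liver, and the groups overlapped (0.21, SE 0.23, interval -0.28 to 0.71, limma adjusted p = 0.685). Clock read 8.92, 9.20 and 9.18 (0.22, SE 0.10, interval 0.01 to 0.43, limma adjusted p = 0.325) and Npas2 7.88, 8.07 and 7.74 (0.35, SE 0.22, interval -0.11 to 0.81, limma adjusted p = 0.457). Both of these lay above control without overlap, as did 12.0% of all genes. Limma called 5 genes in this comparison (0.0345%), none of them in the clock lists, and 0 without array C of IPCR. Without that array Bmal1 stood at 0.16, Clock at 0.18 and Npas2 at 0.43 (limma adjusted p of 0.906, 0.695 and 0.669). The acinar markers had a median change of 0.54 here with none of the 5 called. Noct stood closest among the output genes, with 8.82, 7.19 and 8.31 against 6.24, 6.41 and 6.76 in controls (1.64, SE 0.34, limma adjusted p = 0.0875). It passed without IPCR array B (2.09, limma adjusted p = 0.0143), and its limma adjusted p was 0.315 without array C. Without array B 3 of the 15 output genes were called higher and none lower, where 80 of 14506 genes were called. Noct was chosen for mention after its values were seen.

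None of the 3 members passed between IPCR and IUCR at day 450, where limma called 6 genes (0.0414%) and 1084 had an unadjusted p below 0.05. Bmal1 was lower in IPCR without overlap, as were 3.32% of all genes (-0.80, SE 0.23, interval -1.30 to -0.31, limma adjusted p = 0.422). Npas2 (-0.33, interval -0.79 to 0.13) and Clock (-0.06) overlapped. Without IPCR array C the values were -0.86 for Bmal1, -0.25 for Npas2 and -0.10 for Clock, and limma called 0 genes. None of the 15 E-box output genes was called with all arrays, and their median was 0.49. Without IPCR array B 3 of 15 were called higher and none lower, where 14 of 14506 genes were called. Noct stood at 2.23 there (limma adjusted p = 0.00596). The acinar markers had a median of 0.75, with none called. The 3 comparisons within day 450 share arrays with each other, so their values are not independent.

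The effect of IPCR on all 3 activators differed between the ages. The effect at day 450 minus that at day 21 was 2.29 for Bmal1 (SE 0.33, interval 1.59 to 2.98, limma adjusted p = 0.000977), 1.63 for Npas2 (SE 0.31, interval 0.98 to 2.29, limma adjusted p = 0.00558) and 0.64 for Clock (SE 0.14, interval 0.34 to 0.94, limma adjusted p = 0.0135). Of all genes 8.20% passed this test and 6.56% in the same direction. The share of positive calls was 80.0% as deposited, 89.8% with centred arrays and 52.7% after quantile normalization. The call of Clock was lost (0.50, limma adjusted p = 0.232) with the interquartile range as a covariate. Of the E-box output genes 6 of 15 differed in the opposite direction and none in this one, with a median of -0.78, where 1.64% of all genes did. That count was 4 to 6 with 1 array left out, and without day 450 IPCR array B 1 output gene also differed the other way. The smallest count came without day 21 control array A, day 450 control array A or day 450 IPCR array B. Of the endothelial markers 3 of 6 differed in the direction of the activators, and the acinar markers had a median of 0.57 with none of 5 called. Without day 450 IPCR array C, where the acinar signal lay, the difference was 2.23 for Bmal1, 1.71 for Npas2 and 0.60 for Clock, and all 3 passed (limma adjusted p of 0.00445, 0.0126 and 0.0403). Over all genes 642 were called without that array, against 1189.

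Within IPCR animals no activator passed as lower with age. Bmal1 changed by -0.19 between day 21 and day 450 (SE 0.23, interval -0.69 to 0.30, limma adjusted p = 0.58) and the groups overlapped. Npas2 stood higher at day 450 without overlap (0.47, SE 0.22, interval 0.00 to 0.93, limma adjusted p = 0.127), and it passed (limma adjusted p = 0.0137) when only these 2 groups were fitted. Clock rose by 0.46 (SE 0.10, interval 0.24 to 0.67, limma adjusted p = 0.00299), and that call was lost (0.33, limma adjusted p = 0.144) with the interquartile range as a covariate. Here 28.1% of all genes changed, 18.3% rose, 9.78% fell and 23.5% lay higher without overlap. Rises made up 65.2% of calls as deposited, 81.4% with centred arrays and 44.9% after quantile normalization. Of the 6 endothelial markers 5 rose, with array means of 8.75 to 9.30 at day 21 and 9.54 to 9.73 at day 450. The acinar markers had a median of 0.74 with none called, and without day 450 IPCR array C Bmal1 stood at -0.25, Npas2 at 0.54 and Clock at 0.42 (limma adjusted p of 0.589, 0.144 and 0.0167).

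The E-box output genes split within IPCR animals, 4 rising and 4 falling of 15, where 18.3% of all genes rose and 9.78% fell. Nr1d1 was up by 1.04 and Per1 down (-1.28). Without day 450 IPCR array C 3 rose and 4 fell. Without day 21 IPCR array A or C or day 450 IPCR array B only 2 fell, as Per3 and Wee1 were lost in each case. Wee1 was also lost without day 450 IPCR array A. The rise of Dbp (0.75, limma adjusted p = 0.0128) was lost without day 21 IPCR array B or day 450 IPCR array A or C.

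The groups therefore stood in different orders for the 3 genes. Mean Bmal1 was highest in day 21 control (8.97, SD 0.05), apart from day 450 IUCR (7.50, SD 0.46), and the remaining neighbours overlapped: day 21 IPCR (6.89, SD 0.40), day 450 IPCR (6.70, SD 0.42) and day 450 control (6.49, SD 0.16). Mean Npas2 ran from day 21 control (8.71, SD 0.17) through IUCR (8.23, SD 0.58), day 450 IPCR (7.90, SD 0.16) and day 450 control (7.55, SD 0.29) to day 21 IPCR (7.43, SD 0.15), and the only neighbours in this order that did not overlap were day 450 IPCR and day 450 control. Mean Clock was highest in IUCR (9.16, SD 0.22), followed by day 450 IPCR (9.10, SD 0.16) and day 21 control (9.06, SD 0.06), which overlapped, and then, each apart from the one before, day 450 control (8.88, SD 0.01) and day 21 IPCR (8.64, SD 0.05).

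The members varied together to different degrees, given here as Pearson correlations without a test, since arrays share groups, ages and normalization. Bmal1 and Npas2 correlated at 0.86 over the 15 arrays and at 0.71 over the deviations of the arrays from their group means. Clock correlated with Bmal1 at 0.41 and 0.63 and with Npas2 at 0.63 and 0.30 by the same measures. Over the 9 arrays of day 450 the values were 0.83 for Bmal1 with Npas2, 0.78 for Bmal1 with Clock and 0.63 for Npas2 with Clock. Without day 450 IPCR array C the values over the other 14 arrays were 0.86, 0.47 and 0.69 in the same order of pairs, and the 60 correlations with named genes given below moved by at most 0.048. Over deviations they were then 0.75, 0.62 and 0.36, and over the 8 remaining day 450 arrays 0.83, 0.83 and 0.69.

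Among 14505 other genes Dbp was the one most opposite to Bmal1, at r = -0.962 over the 15 arrays and -0.887 over deviations from group means. Leaving out each array in turn kept the former between -0.969 and -0.952 and the latter between -0.935 and -0.833. Per3 was the gene most opposite to Npas2 (-0.917 over 15 arrays). Nr1d1 did not follow this pattern within groups: its correlation with Bmal1 was -0.68 over the 15 arrays and 0.17 over deviations, against -0.89 and -0.58 for Nr1d2.

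**Figure D4:**
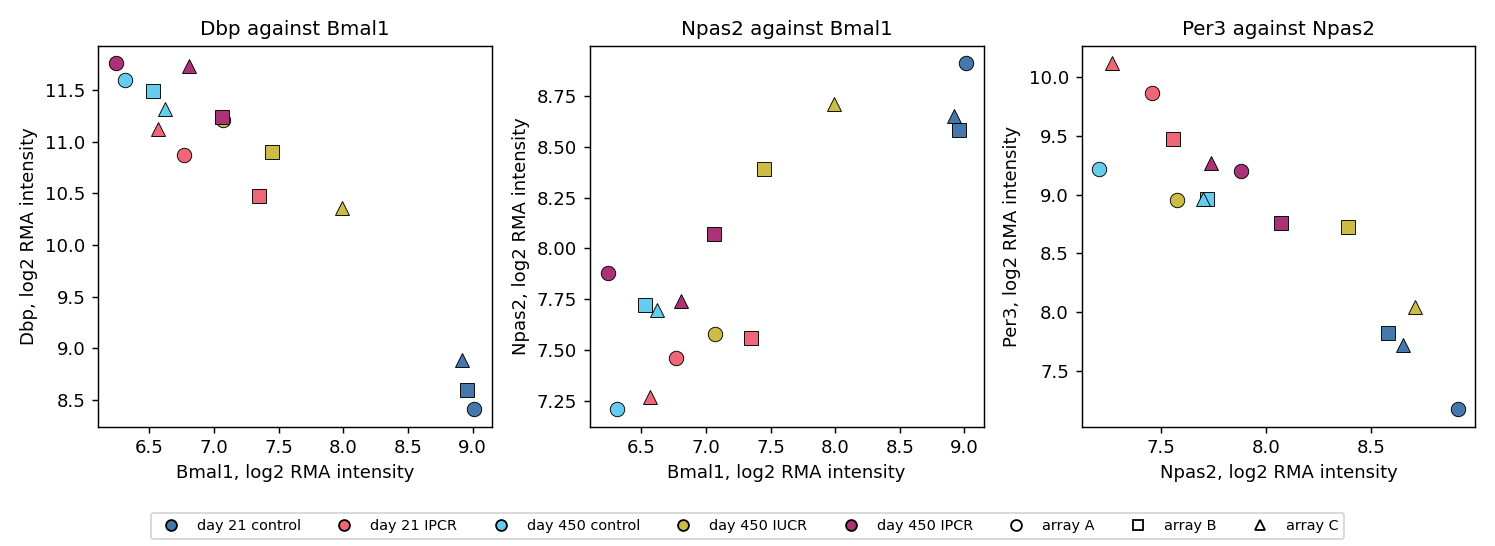
Log2 RMA intensity of Dbp against Bmal1, Npas2 against Bmal1 and Per3 against Npas2, 1 point per array, with colours for the 5 groups and shapes for arrays A, B and C. Dbp falls along a line from arrays with low Bmal1 to the 3 day 21 controls with Bmal1 near 9 (r = -0.962), and the 3 IUCR arrays lie in order along it.

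The genes that followed Bmal1 most closely over the 15 arrays were Clpx, a mitochondrial unfoldase that also acts on ALAS enzymes (r = 0.96), Pdgfrb, a receptor of stellate cells and fibroblasts (0.936), Avpr1a, the liver vasopressin receptor (0.922), Coro1c (0.90) and Lnx2 (0.894). Clpx averaged 11.21 in day 21 control, 10.46 in day 21 IPCR, 10.19 in day 450 control, 10.70 in IUCR and 10.35 in day 450 IPCR, the same order of groups as Bmal1. Pdgfrb is on the stellate marker list and averaged 9.18 in day 21 control and 8.24 to 8.41 in the other 4 groups. Its list did not share the fall at day 21: 1 of 8 markers fell in IPCR liver, where 6.99% of all genes fell. The median change of the list was -0.08, and its array means ran from 9.21 to 9.49 in control and from 9.18 to 9.27 in IPCR liver. With age in control 6 of 8 fell. The genes most opposite to Bmal1 after Dbp were Tef (-0.941), Per2 (-0.935), Epm2a, the glycogen phosphatase laforin (-0.916), and Klf16 (-0.908).

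Npas2 was followed most closely by Chka, a choline kinase (0.919), Abcb4, the phospholipid transporter of bile (0.906), Popdc2 (0.902), Psen2 (0.901) and Gckr, the regulator of glucokinase (0.885). Opposite to Npas2 after Per3 were Epm2a (-0.88), Hdc (-0.86), Stk35 (-0.858) and Gys2 (-0.843). Clock kept other company: Bmf (0.942), Rab14 (0.937), Tmco1 (0.93), Tex2 (0.927) and Synj2bp (0.923) followed it, and Hmga2 (-0.895), Map6 (-0.881), Misp3 (-0.879), Fzd9 (-0.878) and Ccnd3 (-0.872) opposed it. Median centring and quantile normalization were applied only to the closest and the most opposite gene of each member, over arrays and over deviations. The other named correlations were not recomputed under them. After quantile normalization the value of Hmga2 was -0.778.

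Over deviations from group means, the genes closest to Bmal1 were Efna1 (0.929), Cmtm6 (0.924), Ppargc1b (0.917), Lrch4 (0.905) and Mical3 (0.90), and those most opposite after Dbp were Car14 (-0.862), Ubqln2 (-0.857), Txnl4b (-0.853) and Arhgap29 (-0.846). Ppargc1b, a coactivator from the receptor list, thus rose in IPCR liver while Bmal1 fell, yet varied in the same direction as Bmal1 between arrays of 1 group. For Npas2 the closest were Parm1 (0.955), Cln8 (0.91), Spint1 (0.908), Rhoxl (0.903) and Sctr (0.895), and the most opposite Fdx2 (-0.939), Rps19 (-0.939), Vps26a (-0.908), Lrrc59 (-0.893) and Nubp1 (-0.876). The value of Fdx2 was -0.662 after quantile normalization. For Clock they were Pon2 (0.934), Atxn3 (0.924), Hexd (0.919), Heca (0.913) and Kank1 (0.905), and Actrt1 (-0.915), Smgc (-0.911), Onecut1 (-0.894), Map3k14 (-0.889) and Gng8 (-0.88). Group means of Actrt1 (4.76 to 4.99) and Smgc (5.21 to 5.37) lay below the lower quartile of the arrays (6.0 to 6.16). Signal of these 2 genes may be background, and this was not tested. Group means of Rhoxl (6.49 to 6.59) and Spint1 (6.52 to 6.78) stood not far above that quartile. The genes named by correlation are the extremes of a ranking of all genes on these same arrays, and no test was run on them.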

How the data were processed

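The deposited values are RMA-normalized log2 intensities (robust multi-array average, Affymetrix Expression Console), per the submitters' processing notes, with versions not given in the sources used here. They were used as they stand. Of 29215 probe sets 15310 had 1 gene symbol in the platform annotation, and the probe set of highest mean was kept for each of 14506 genes (527 had several). No values were missing. Array medians ran from 7.11 to 7.24, and 3 arrays per group limit the precision.

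In R 4.3.3, limma 3.58.1 fitted the 5 group means to all 15 arrays (lmFit, eBayes without trend), with p adjusted by Benjamini and Hochberg over all genes in each comparison. SE is limma's moderated standard error and SD is over 3 arrays. The script was tested on simulated data. Differences between members were compared by an exact permutation test. The members, gene lists and tests were chosen with earlier results of these data known. Named genes were the members, core clock genes, up to 4 called genes of smallest adjusted p per list in the day 21 and control age comparisons, and for each member the 5 genes of highest and of lowest correlation. Other list members were named after their values were seen.

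The replicate letters were not treated as pairs in the main fit. Deviations of same-letter arrays correlated at -0.26 to 0.2 (30 pairs, 5 above 0.1), and those of different letters at -0.25 to 0.33 (60 pairs, 9 above 0.1). These correlations cannot show whether a letter marks a litter or a batch. Promoter windows came from the RefSeq table of assembly GRCr8, in which all 3 members matched. Alternatives were median centring, quantile normalization, a replicate block, fits of only the groups compared, averaged probe sets, trend and robust moderation, genes above the median, each array's interquartile range as a covariate, and leaving out each array. Scan dates are not in the labels, and raw intensities were not used here.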

Additional observations from a re-analysis of the deposited data

Results flagged for a closer look

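The following genes showed a different effect of IPCR at day 450 than at day 21 by limma's test of the difference itself, given as the log2 effect at day 450 minus that at day 21. Among the activators it was 2.29 for Bmal1, 1.63 for Npas2 and 0.64 for Clock.

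Of the E-box output genes it was -2.21 for Per3 (SE 0.32, limma adjusted p = 0.00102), -2.09 for Dbp (SE 0.29, limma adjusted p = 0.000792), -1.31 for Per1 (SE 0.19, limma adjusted p = 0.00119), -0.95 for Wee1 (SE 0.25, limma adjusted p = 0.0333), -0.78 for Tef (SE 0.17, limma adjusted p = 0.0116) and -0.52 for Nr1d2 (SE 0.13, limma adjusted p = 0.0271). At day 450 the effect was -0.25 for Wee1, and it lay between 0.03 (Per3) and 0.14 (Nr1d2) for the others. Nfil3 differed by 0.66 (limma adjusted p = 0.0441), in the direction of the activators.

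In the other lists the difference was 1.03 for Ahr, 0.48 for Hif1a, 0.57 for Oga, 0.46 for Csnk2b, 0.52 for Ppox, -0.94 for Alas1 and -0.90 for Gys2. The shares called were 13.3% of relatives and 10.5% of modifiers, near the 8.2% of all genes. These 2 lists therefore did not stand out as lists. Of the 9 heme genes 1 was called higher and 1 lower, and of the 8 metabolic targets 2 were called lower and none higher. Leaving out 1 of the 12 arrays ended the call for some of the genes named in this section. Hif1a was lost without day 21 control B, day 21 IPCR A or B, day 450 control B, or day 450 IPCR A or C. Nfil3 was lost without day 21 control A or C, day 21 IPCR A or B, day 450 control A or B, or day 450 IPCR A or C. Nr1d2 was lost without day 21 control A or B, day 21 IPCR B, day 450 control A or B, or day 450 IPCR B. Ppox was lost without day 21 control B, day 21 IPCR A or B, day 450 control C, or day 450 IPCR A or C, and Oga without day 21 control A, day 21 IPCR A or day 450 IPCR C. Wee1 was lost without day 21 control A, B or C, day 21 IPCR A, day 450 control A, or day 450 IPCR A, B or C.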

How the results depend on the processing

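Over the alternatives other than leaving out an array, 157 member values kept their direction and side of the threshold, 3 lost the call and 1 gained it. With each array's interquartile range as a covariate, Clock stood at -0.37 at day 21 (limma adjusted p = 0.0521), 0.33 for age in IPCR and 0.50 for the difference of the effects. With only the groups compared, Npas2 gained a call for age in IPCR (0.47). Under that covariate Bmal2 turned to 0.03 at day 21, not called in either. Of the other named genes 23 calls were lost and 312 values kept direction and side. At day 21 these were Cpox, Csnk2b and Nfil3 after quantile normalization, Cry2 and Ppargc1b with centred arrays, Cry2 with the block, Cpox, Nr1d1, Ppargc1a, Ppargc1b and Ppox with only the groups compared, and Cpox, Ppargc1b and Ppox with the covariate. For age in control they were Nfil3 under all 5 of these settings, Csnk2b and Ppox with centred arrays, and Lpin1 and Ppox with only the groups compared.

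Genes called for IPCR against control at day 450 (5) were 3 after quantile normalization, 0 with the replicate block and 0 with the covariate, 2 with only the groups compared, and 15 with trend and robust moderation and 15 above the median level. For IPCR against IUCR (6) they were 2 with centred arrays, 0 after quantile normalization, 3 with the replicate block, 0 with only the groups compared, 1 with trend and robust moderation and 3 with the covariate. Age in IPCR gave 1746 with the covariate (4070), and the difference of the effects 778 after quantile normalization and 112 with the covariate (1189). The few calls within day 450 were 60.0% higher for IPCR against control (80.0% centred, 33.3% after quantile normalization).

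With each array left out, Bmal1 ran from -2.30 to -1.91 for IPCR at day 21, 0.77 to 1.23 for IUCR, 0.04 to 0.44 for IPCR at day 450, -1.02 to -0.56 against IUCR, -2.54 to -2.39 for age in control, -0.37 to 0.04 for age in IPCR and 2.11 to 2.52 for the difference. Clock ran from -0.45 to -0.39, 0.15 to 0.37, 0.17 to 0.31, -0.15 to 0.06, -0.21 to -0.15, 0.41 to 0.55 and 0.59 to 0.73. Npas2 ran from -1.35 to -1.18, 0.44 to 1.01, 0.18 to 0.44, -0.65 to -0.09, -1.26 to -1.0, 0.38 to 0.54 and 1.47 to 1.72. Genes called ran from 755 to 1500, 0 to 2, 0 to 80, 0 to 14, 1025 to 1164, 2951 to 4080 and 606 to 1546 in the same order.

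With the replicate letter as a block, Bmal1 at day 21 had an SE of 0.20 and a limma adjusted p of 6.55e-05, and the block changed no call of the members. With 3 arrays per group and no call of signal over background, differences near the lowest intensities are measured least well.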
